A study of Mus musculus with 6 samples.

Results

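The skin beta-defensins described here are Defb1, Defb3, Defb4, Defb6 and Defb14, 5 genes chosen by name out of 31682 genes with a usable probe on the array. Each was read by 1 probe, and all 5 probes passed the filter on dim probes, as did those of 23676 genes in all. RNA from whole ear skin was hybridised to one-colour arrays for 6 mice, each on an array of its own. Wild-type (WT) mice 1, 2 and 3 had NC16A, a segment of BP180, and knockout (KO) mice 1, 2 and 7 were deficient in it. BP180 is collagen XVII, the hemidesmosomal collagen encoded by Col17a1 that anchors basal keratinocytes. Age and sex were matched between the groups, and the labels name no treatment. Neither the strain and ages nor the promoter or cell type behind the deletion is given in the sources used here. The comparison asks how ear skin lacking NC16A differs from ear skin that has it.

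Beta-defensins are small cationic peptides held together by disulfide bonds between paired cysteines, and epithelia secrete them onto their surface, where they damage microbial membranes. Mouse Defb1 is made constitutively by many epithelia. Mouse Defb3, Defb4 and Defb14 are induced in epithelia by infection and by cytokines of the IL-1 and IL-17 families, and Defb14 is the mouse counterpart of human beta-defensin 3. Mouse Defb6 was described in skeletal muscle as well as in epithelia. Beside killing microbes, beta-defensins attract cells that carry the chemokine receptor Ccr6.

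What the arrays read of each gene was a 60-base stretch of chromosome 8, shown here because each gene's result rests on that single probe. On mm9 the probes lay at chr8:19195152-19195211 for Defb14, chr8:19201282-19201341 for Defb4, chr8:19228090-19228149 for Defb6, chr8:19295274-19295333 for Defb3 and chr8:22905041-22905100 for Defb1, all listed on the plus strand. Defb14, Defb4, Defb6 and Defb3 thus sit close together, and Defb1 lies in another stretch of the chromosome. For Defb14, Defb3 and Defb1 the first 30 bases of the probe are shown. For Defb4 and Defb6 the 27 bases over which a blastn search aligned their probes are shown, and all read 5′ to 3′.
Defb14: ggaagaacaaataggtcgatgttctaatag
Defb4: atagataaaaagacgAAGAACCAGCAA
Defb6: atagataaaaggaccAAGAACCAGCAA
Defb3: gaagatggacaaatcttaaaccaaattaat
Defb1: agagctgacagtagtttgaagaatggacat
The capitals mark the longest run that the Defb4 and Defb6 probes share, 12 bases. In the 27 aligned bases 25 were identical, and the blastn search of all probes on the array found no other probe similar to those of the 5 genes. A local alignment of the Defb4 and Defb6 probes that allows gaps covered 38 bases, 33 of them identical. Whether the Defb4 probe also reads Defb6 transcripts was not tested.

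The arrays had 72.6% to 78.2% of their spots well above background and no saturated spot. The 3 WT arrays and KO 1 were on the same slide (slide 1), and KO 2 and KO 7 were on another. Values with slide as a block are from a fixed block. As the other slide holds no WT array, that difference equals the slide 1 difference, with KO 1 as its only KO array. It is therefore no second check beside slide 1 alone. Levels are given on a log2 scale relative to the 75th percentile of the array's processed signal, and the level of 1 probe cannot be set against that of another. Differences are KO minus WT with the standard error (SE) of the limma fit, and a gene passed at a Benjamini-Hochberg adjusted p under 0.05 over all genes. For Col17a1, the probe's level averaged 4.34 in the WT mice (SD 0.04, n = 3) against 4.21 in the KO mice (SD 0.19, n = 3), and since its place relative to the deleted segment was not examined, it does not check the labels. All 12 of 12 keratinocyte markers, which define the labelled tissue, were measured.

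Defb3, an inducible beta-defensin, had the largest fitted difference of the 5 genes. Its level was -5.67, -6.63 and -6.92 in WT 1, WT 2 and WT 3. In KO 1, KO 2 and KO 7 it was -1.52, -3.23 and -0.97. Every KO array was above every WT array, KO 2 was the lowest KO array and WT 1 was the highest WT array. As processed signal this was 138, 56.1 and 48.5 against 1639, 473 and 2062, and all 6 arrays were well above background. Group means were -6.41 ± 0.65 in WT and -1.91 ± 1.18 in KO (SD, n = 3 each). Defb3 rose by 4.50 ± 0.61 (SE), a 22.6-fold difference with a 95% interval of 3.04 to 5.96 on the log2 scale (limma, adjusted p = 0.0185). With normexp background the difference was smaller, at 3.59, and passed (adjusted p = 0.00699). On slide 1 alone the difference was 4.89, with KO 1 as the only KO array, and with slide as a block the adjusted p was 0.146. The call was also lost without WT 2 or without WT 3, with a highest adjusted p of 0.0856. With slide as a random block in limma, the call was kept (adjusted p = 0.0205).

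Defb4, likewise inducible, had a level of -6.48, -7.08 and -8.04 in WT 1, WT 2 and WT 3, of which WT 3 was not well above background. In KO 1, KO 2 and KO 7 it was -3.73, -5.12 and -2.92. The groups did not overlap, and the order of the arrays was the same as for Defb3, with WT 3 lowest and KO 7 highest. As processed signal it read 79.1, 41.1 and 22.3 in WT against 354, 127 and 536 in KO. Group means were -7.20 ± 0.79 and -3.92 ± 1.11 (SD, n = 3 each). The difference of 3.28 ± 0.62 (SE), 9.68-fold with an interval of 1.79 to 4.76 on the log2 scale, missed the threshold (limma, adjusted p = 0.0525). It was 3.47 on slide 1 alone, and with slide as a block the adjusted p was 0.384. Defb4 passed in 1 of the 6 fits with 1 array left out, the fit without KO 2 (adjusted p = 0.0383), and the highest adjusted p was 0.169.

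Defb14, an inducible peptide active against bacteria and yeast, had a level of 0.28, 0.56 and 0.68 in WT 1, WT 2 and WT 3. In KO 1, KO 2 and KO 7 the level was 2.12, 2.19 and 2.93. The KO arrays lay well above the WT arrays, KO 7 was the highest, and here WT 1 was the lowest WT array and WT 3 the highest, the reverse of Defb3 and Defb4. As processed signal it read 8571, 8163 and 9402 in WT against 20398, 20163 and 30857 in KO. Group means were 0.50 ± 0.20 and 2.41 ± 0.45 (SD, n = 3 each). Defb14 rose by 1.91 ± 0.25 (SE), 3.75-fold with an interval of 1.31 to 2.50 on the log2 scale (limma, adjusted p = 0.0158). It was 1.61 on slide 1 alone, with an adjusted p of 0.208 with slide as a block. The call was lost when any 1 of the WT arrays was left out, with a highest adjusted p of 0.075. With slide as a random block in limma, the call was kept (adjusted p = 0.0179).

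Defb6 had a level of 4.62, 4.64 and 4.22 in WT 1, WT 2 and WT 3. In KO 1, KO 2 and KO 7 it was 5.22, 5.27 and 4.64. KO 1 and KO 2 stood above the WT arrays, while KO 7 lay above WT 2 only from the third decimal on (4.643 against 4.636). Before scaling, the groups overlapped, with a processed signal of 173344, 138156 and 109704 in WT and 175760, 170977 and 101217 in KO. Group means were 4.49 ± 0.23 and 5.04 ± 0.35 (SD, n = 3 each). The difference of 0.55 ± 0.22 (SE), 1.47-fold with an interval of 0.03 to 1.08 on the log2 scale, did not pass (limma, adjusted p = 0.175). On slide 1 alone it was 0.73.

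Defb1, the constitutive member, had a level of 0.23, 0.23 and -0.13 in WT 1, WT 2 and WT 3. In KO 1, KO 2 and KO 7 it was 0.35, 0.00 and 0.17. The groups overlapped, with KO 1 highest and WT 3 lowest of all arrays. As processed signal it read 8264, 6529 and 5354 in WT against 5984, 4421 and 4547 in KO. Group means were 0.11 ± 0.21 and 0.17 ± 0.18 (SD, n = 3 each). The difference was 0.06 ± 0.17 (SE) with an interval of -0.34 to 0.46 on the log2 scale (limma, adjusted p = 0.828), and with 3 arrays a group no change could be told from the spread. Its sign turned with array median scaling, where it was -0.069, and on slide 1 alone it was 0.24.

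**Figure D1:**
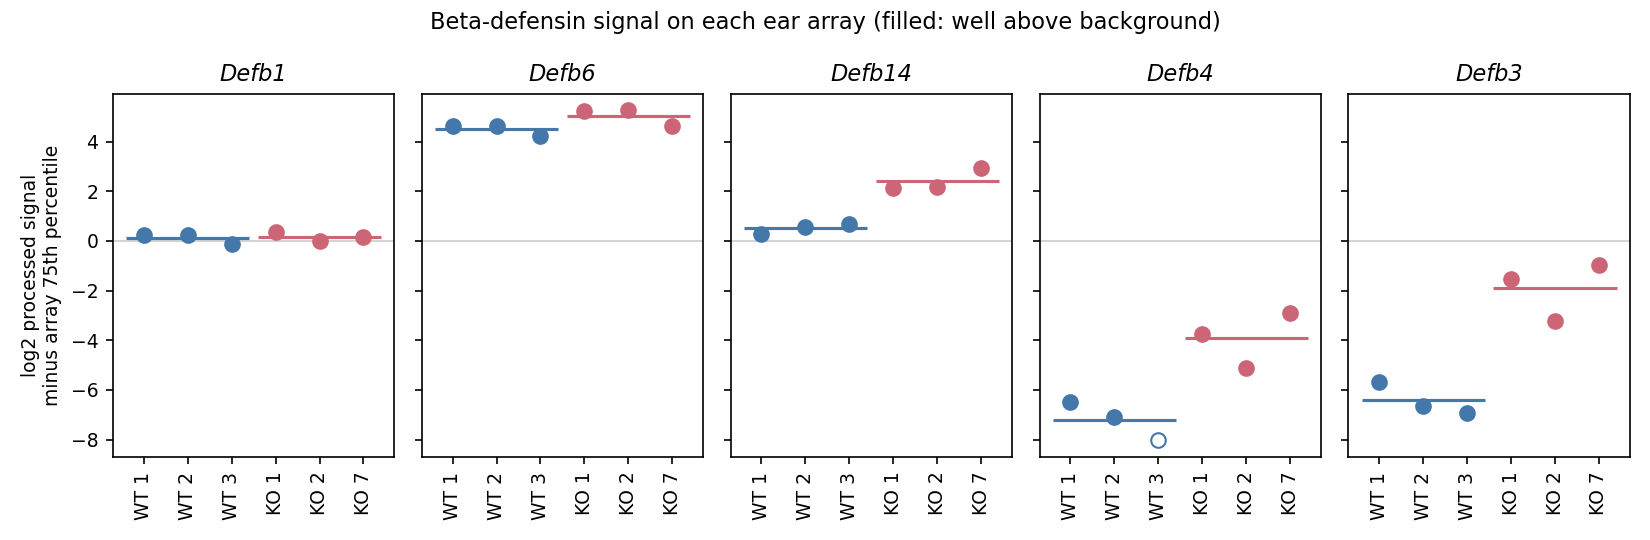
Level of each beta-defensin (log2 scale, relative to the 75th percentile of each array, vertical axes) on each WT and KO array, with a point per array (open where not well above background) and a line at each group mean. The KO points of Defb3, Defb4 and Defb14 stand clear of the WT points, those of Defb6 are nearly in contact (4.643 against 4.636), and those of Defb1 overlap.

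Counted together, 2 of the 5 genes rose (Defb3 and Defb14), 0 fell and 3 did not pass, where 2.42% of the 23676 genes tested passed, 2.01% as higher in KO and 0.418% as lower. The fitted difference was above 0 for all 5, as it was for 54.4% of all genes tested. All KO arrays were above all WT arrays in 4 of the 5, against 20.7% of all genes tested, and in 0 of the 5 were all below, against 14.6%. Defb1 was the gene whose groups overlapped. The median difference over the 5 genes was 1.91, and over all genes tested it was 0.05. Ear skin holds many cell types, and in bulk RNA more cells of a type cannot be told apart from more RNA per cell. The plot of differences with their intervals shows the order of the genes, from Defb3 through Defb4, Defb14 and Defb6 to Defb1. The intervals of Defb3 and Defb4 overlap, as do those of Defb4 and Defb14 and those of Defb6 and Defb1.

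**Figure D2:**
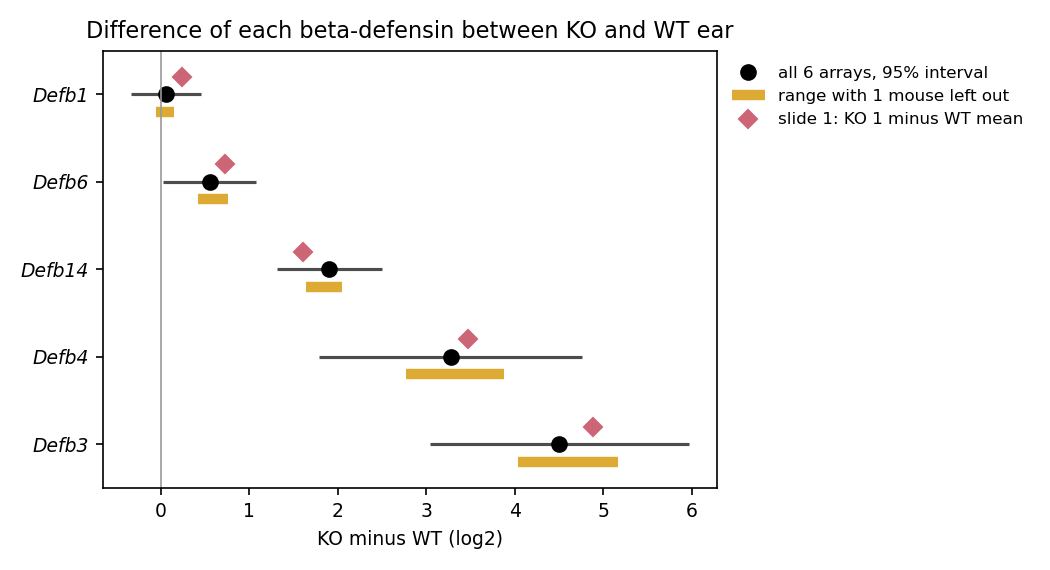
Fitted KO minus WT difference (log2) for each beta-defensin with its 95% interval from limma (black), the range with 1 mouse left out (yellow bars) and the slide 1 difference (diamonds). Intervals for Defb3, Defb4 and Defb14 lie above 1, that of Defb6 begins at 0.03, and that of Defb1 spans 0 from -0.34 to 0.46.

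The members could also be read against one another on the same array, which takes out the scaling of the array. This comparison was chosen after seeing the data. Relative to Defb1, Defb3 differed by 4.44, Defb4 by 3.22, Defb14 by 1.85 and Defb6 by 0.49 between KO and WT on the log2 scale. For each of these 4 genes every KO array was above every WT array, as before this step. The share of all genes that did so relative to Defb1 was not worked out. An exact permutation test gave p = 0.1 for each of them, the smallest value it can reach with 3 arrays a group, so it cannot decide.

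How the arrays of a group spread differed among the genes. Within the KO group Defb3 spanned from -3.23 in KO 2 to -0.97 in KO 7, and Defb4 had its lowest and highest values on the same pair of arrays. Defb14 was also highest in KO 7, but KO 1 and KO 2 were close to each other. For Defb6 the order was turned, and KO 7 was the lowest KO array. Over the 6 arrays, which share the split between WT and KO, Pearson's r was 0.988 for Defb3 with Defb4, 0.934 for Defb3 with Defb14 and 0.903 for Defb4 with Defb14. It was 0.634 for Defb3 with Defb6, while Defb1 had values of 0.100 to 0.479 with the other members. These are descriptions over 6 arrays.

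**Figure D3:**
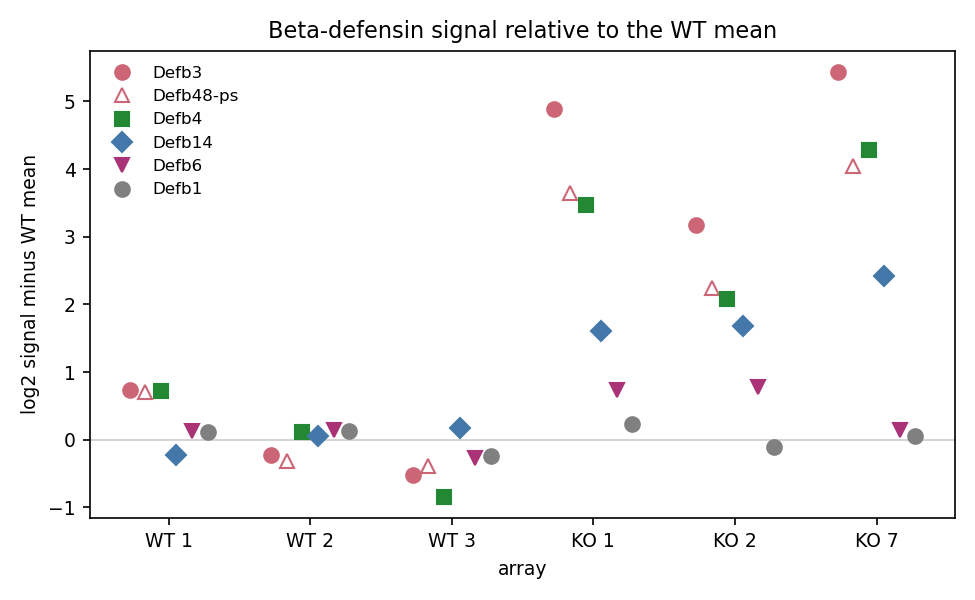
Level of the 5 beta-defensins and of Defb48-ps on each array, as log2 signal minus that gene's own WT mean (vertical axis), with arrays along the horizontal axis. Defb3, Defb48-ps and Defb4 are each lowest among KO arrays in KO 2 and highest in KO 7, whereas Defb6 is lowest among them in KO 7.

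Upstream sequence was at hand for Defb3 and Defb6, 2 of the 5 genes, from RefSeq on GRCm38.p6. They are shown because these genes lie near each other and the intervals of their differences (22.6-fold for Defb3 and 1.47-fold for Defb6) do not overlap. The 250 bases before the annotated start lie on the plus strand at chr8:19293111-19293360 for Defb3 and at chr8:19225228-19225477 for Defb6. Capitals mark the octamer ATTTGCAT and the TATA box TATATAA, 5′ to 3′.
Defb3: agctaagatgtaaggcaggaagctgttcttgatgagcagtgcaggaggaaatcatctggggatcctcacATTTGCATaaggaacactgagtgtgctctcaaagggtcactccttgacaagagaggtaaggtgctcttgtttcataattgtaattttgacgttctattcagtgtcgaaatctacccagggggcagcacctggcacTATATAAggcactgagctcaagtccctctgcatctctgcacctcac
Defb6: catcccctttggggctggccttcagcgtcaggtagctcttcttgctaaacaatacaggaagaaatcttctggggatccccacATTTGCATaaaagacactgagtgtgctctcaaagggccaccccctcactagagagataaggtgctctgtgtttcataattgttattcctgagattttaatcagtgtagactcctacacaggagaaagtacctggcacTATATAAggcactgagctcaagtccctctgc
When aligned, 196 of 265 positions were identical, or 74.0%. The octamer began 181 bases before the start in Defb3 and 168 in Defb6, and 1.6% of 32851 promoters of the same length held it on either strand. The TATA box TATATAA began 46 and 31 bases before the start, and 3.04% of promoters held it. Of motifs for factors that act in inflamed epithelium, the NF-kB form, GGG and CC around 5 free bases, occurred in both, as in 45.8% of promoters, and the C/EBP form TTGCNNAA in both, as in 9.56%. The octamer and one C/EBP match overlap in each promoter. Neither window held the STAT form TTCNNNGAA (7.02% of promoters) or the AP-1 form TGANTCA (6.75%). All motifs were searched on both strands and chosen after the sequences were read, and a match describes letters, not binding.

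Outside the 5 genes, the array held 39 other beta-defensin genes with 43 probes, most of them known from the male reproductive tract. No array was well above background for 21 of them, 8 were above it on 1 or 2 arrays, and 10 were measured on at least 3 arrays. Of these 10, 1 rose, 1 fell and 8 did not pass, beside 2.01% that rose and 0.418% that fell among all genes tested. Their median difference was 0.13 beside 0.05 over all genes. The gene that rose was Defb48-ps, annotated as a pseudogene and placed on an unassembled piece of chromosome 8. Its level was -5.06, -6.08 and -6.15 in WT 1, WT 2 and WT 3 and -2.11, -3.52 and -1.71 in KO 1, KO 2 and KO 7. The groups did not overlap, and the KO arrays fell in the same order as for Defb3. It rose by 3.31 ± 0.52 (SE; limma, adjusted p = 0.0312), with an adjusted p of 0.213 with slide as a block. Without WT 2, WT 3, KO 1 or KO 7 it did not pass (highest adjusted p = 0.123). Pearson's r between Defb48-ps and Defb3 was 0.998 over the 6 arrays, although the longest run their probes share is 6 bases. Whether the Defb48-ps probe also reads transcripts of another beta-defensin was not tested. The first 30 bases of this probe, shown for comparison with the Defb3 probe above, are these.
Defb48-ps: ggtaatactcataagattgacagttgtgga

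Defb35, chiefly an epididymal gene in mice, was the beta-defensin that fell. Its level was -7.24, -6.79 and -7.39 in WT 1, WT 2 and WT 3, and no KO array was well above background. Against the lowest signal well above background on each KO array, it was at least 1.33-fold lower in KO, a bound with no test. The fitted difference was -2.04 (limma, adjusted p = 0.0328, and 0.365 with slide as a block), and it rests on KO values that were not well above background. Without any 1 of the WT arrays or KO 2 it did not pass (highest adjusted p = 0.123). It passed the filter on dim probes through the WT arrays alone. With normexp background and without the filter, 0 of the other beta-defensins fell, and without the filter 0 rose. The 8 other measured beta-defensins did not pass. Among them Defb2, an inducible epithelial member, differed by 0.98 ± 0.30 (SE; adjusted p = 0.117), and Defb15 by -0.59 ± 0.15 (SE; adjusted p = 0.086). Defb11, Defb25, Defb36, Defb42 and Defb45 differed by -0.76 to 0.89.

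The genes lying near the 5 on chromosome 8 were also read. Within 1 Mb of any of their probes on mm9, the array held 87 other genes, 48 of them measured. Of the 48, 1 rose and 1 fell, beside 2.01% and 0.418% of all genes tested, so the count is no result about the neighbourhood. The median difference was 0.14. The one that fell was Defb35, near Defb1. The one that rose was Spag11b, a sperm-associated antigen gene of beta-defensin descent whose probe lies on the far side of Defb14 from Defb4. Its level was -7.46, -7.45 and -7.65 in WT 1, WT 2 and WT 3 and -5.98, -5.16 and -5.92 in KO 1, KO 2 and KO 7. Both groups were dim and did not overlap, and 2 of the 3 WT arrays were well above background. Spag11b rose by 1.84 ± 0.24 (SE; limma, adjusted p = 0.0159), a call lost when any 1 of the WT arrays was left out (highest adjusted p = 0.0767) and with slide as a block (0.208). The neighbourhood also held 18 other beta-defensins, 5 measured, and 22 genes of the alpha-defensin family, 6 measured, and none of those alpha-defensin genes passed.

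**Figure D4:**
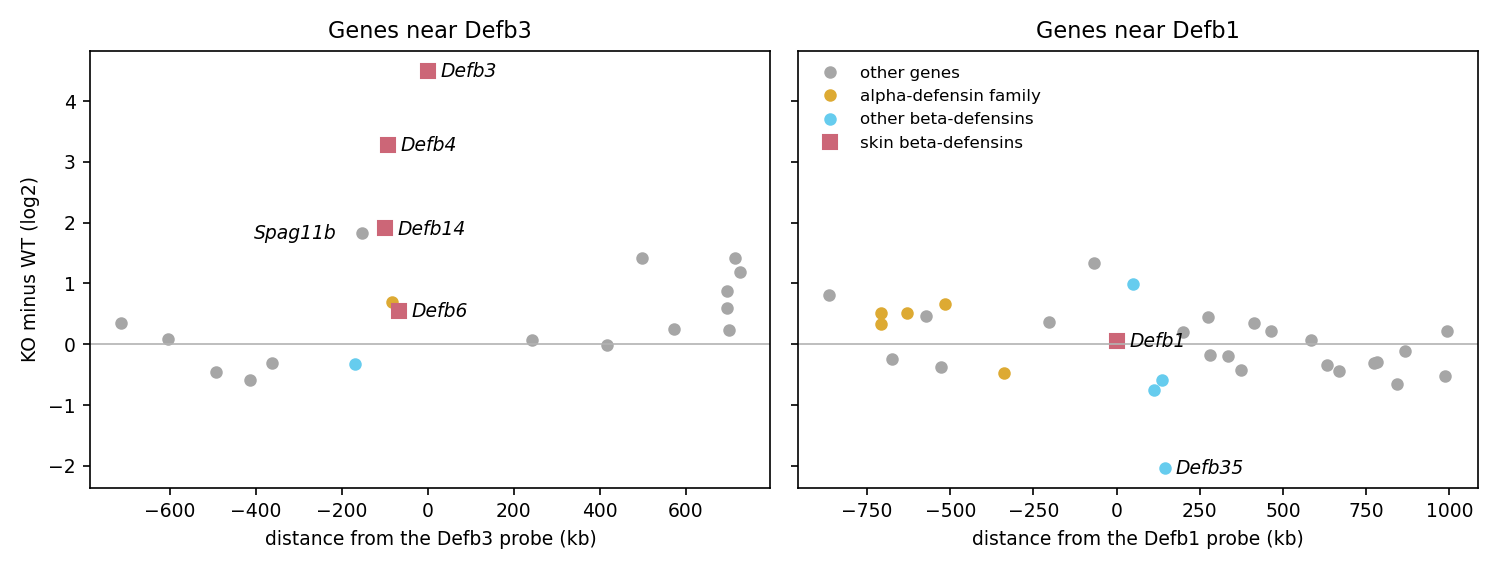
KO minus WT difference (log2, vertical axis) of measured genes against the distance of their probe from that of Defb3 or Defb1 (kb, horizontal axis). Defb3, Defb4, Defb14 and Spag11b stand above the rest near Defb3, and Defb1 sits near 0 at 0.06 among neighbours of which Defb35 is the lowest.

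The known stimuli of epithelial beta-defensins were examined as a list of 17 genes, 16 of them measured. Of these, 4 rose, 0 fell and 12 did not pass, beside 2.01% that rose and 0.418% that fell among all genes tested. The median difference was 0.83 (0.48 on slide 1) beside 0.05 over all genes. Il17a, the cytokine that induces beta-defensins in keratinocytes, had levels of -7.41, -8.18 and -8.23 in WT and -4.07, -3.21 and -2.92 in KO, and 1 of the 3 WT arrays was well above background. It rose by 4.54 ± 0.36 (SE; limma, adjusted p = 0.00267), and passed with slide as a block (0.0223). Areg, an EGF receptor ligand, rose by 2.54 ± 0.28 (SE; adjusted p = 0.00869), Il17f by 1.47 ± 0.23 (SE; adjusted p = 0.0297) and Il1f6, the gene of IL-36 alpha, by 1.53 ± 0.27 (SE; adjusted p = 0.0461). With slide as a block these 3 did not pass, with adjusted p of 0.131, 0.321 and 0.46. Il17f also lost its call without WT 1, WT 2, KO 2 or KO 7 (highest adjusted p = 0.101), and Il1f6 without any array other than KO 1 (0.156). Without the filter on dim probes 2 of the list rose. Il17c, an epithelial cytokine, was above background on no array.

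Receptors and signalling genes upstream of beta-defensins numbered 25, of which 2 rose and 0 fell, beside 2.01% and 0.418% of all genes tested. Their median difference was 0.17 (0.02 on slide 1). Nfkbiz, the inducible NF-kB cofactor through which IL-17 switches on antimicrobial genes in keratinocytes, rose by 2.12 ± 0.18 (SE; limma, adjusted p = 0.0033, and 0.0433 with slide as a block). Nod2, a sensor of bacterial cell wall, rose by 1.37 ± 0.23 (SE; adjusted p = 0.0386, and 0.361 with slide as a block), and its call too was lost without any array other than KO 1 (highest 0.124). Without the filter on dim probes 1 of the 25 rose. Of 9 receptors on which beta-defensins act, 0 passed, beside 2.42% of all genes tested. The smallest p in that list belonged to Ccr6, at 1.58 ± 0.34 (SE; adjusted p = 0.0673), and to Mrgprb2, the mast cell receptor for cationic peptides, at -0.80 ± 0.23 (SE; adjusted p = 0.112).

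Other antimicrobial genes of epithelia numbered 30 in the list, and 25 were measured. In this group 4 rose, 3 fell and 18 did not pass, beside 2.01% that rose and 0.418% that fell among all genes tested. The median difference was 0.25 (0.11 on slide 1). S100a9 and S100a8, the subunits of calprotectin, which withholds metals from microbes, rose by 4.68 ± 0.30 and 4.71 ± 0.35 (SE; limma, adjusted p = 0.00183 and 0.00227). Both kept their call with slide as a block (0.022 and 0.0324). Lcn2, which binds bacterial iron carriers, rose by 2.71 ± 0.34 (SE; adjusted p = 0.0138), and the chitinase-like gene Chil1 rose by 2.28 ± 0.26 (SE; adjusted p = 0.0101). Leap2, a gene for a liver-expressed antimicrobial peptide, was well above background on no KO array. It passed the filter on dim probes through the WT arrays alone. Against the lowest signal well above background on each KO array, it was at least 5.76-fold lower in KO, a bound with no test. Its fitted difference was -4.74 (limma, adjusted p = 0.00183), and it rests on KO values that were not well above background. The hepcidin gene Hamp2 fell by 2.67 ± 0.25 (SE; adjusted p = 0.0053), and Wfdc2, a secreted protease inhibitor of epithelia, fell by 1.13 ± 0.14 (SE; adjusted p = 0.0142). With slide as a block Leap2 passed (0.022), and Chil1, Lcn2, Hamp2 and Wfdc2 had adjusted p of 0.107, 0.187, 0.0776 and 0.19. Lcn2 also lost its call without WT 2 (0.0719), and Wfdc2 without WT 2, WT 3 or KO 2 (highest 0.0817). Ccl20, the chemokine ligand of Ccr6, was above background on no array, as were Reg3b and Bpifa1.

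**Figure D5:**
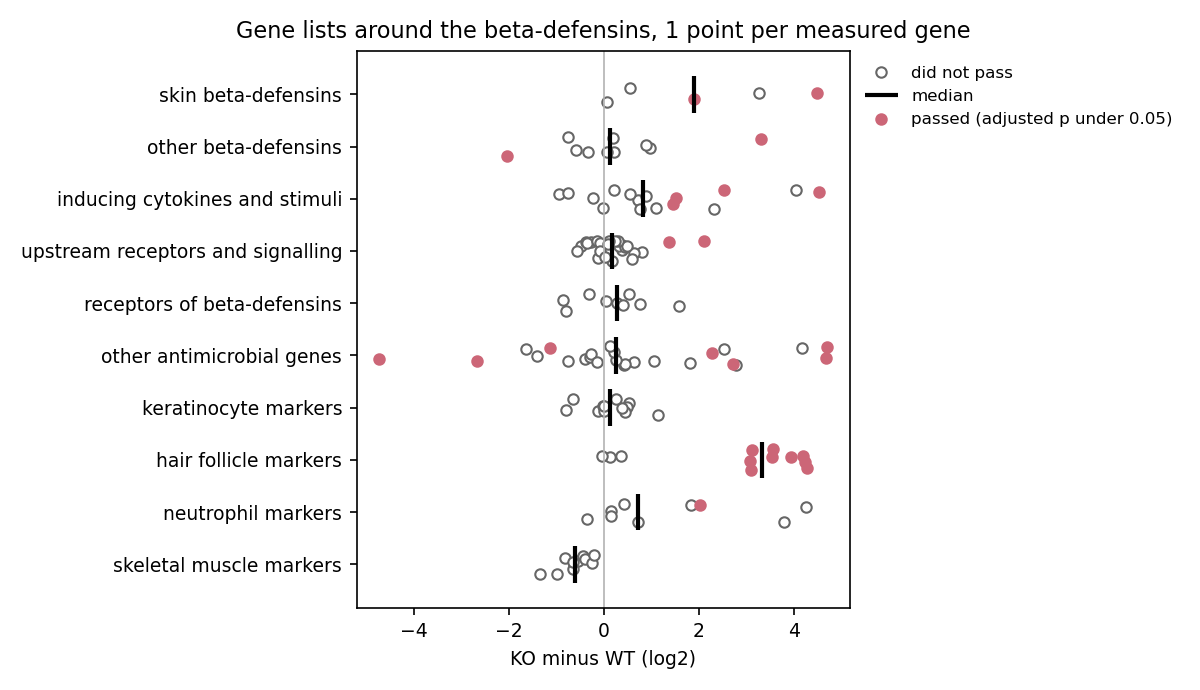
KO minus WT difference (log2) of each measured gene in the 5 skin beta-defensins and in the related gene and marker lists, with a point per gene (filled where it passed) and a bar at each list's median. The beta-defensins have a median of 1.91, their inducers one of 0.83 and the other antimicrobial genes one of 0.25.

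Markers of the cell types in ear skin were read beside the beta-defensins, and only those of the hair follicle had more than 1 gene that passed. Among all genes tested 2.42% passed and 2.01% rose. Of the markers of keratinocytes, the cells that make skin beta-defensins, 0 of 12 passed, with a summed level of 8.77 to 8.96 in WT and 9.11 to 9.37 in KO. Hair follicle markers had 9 of 12 rise with a median difference of 3.34 (3.87 on slide 1), and their summed level was 4.83 to 5.14 in WT and 6.49 to 7.23 in KO. Neutrophil markers had 1 of 9 rise (Cxcr2, by 2.04) with a summed level of 3.07 to 3.17 in WT and 3.54 to 4.41 in KO. Skeletal muscle markers, relevant to Defb6, had 0 of 10 pass with a median difference of -0.60 (-0.32 on slide 1), and their summed level was 7.64 to 8.51 in WT and 7.23 to 8.01 in KO. Macrophage and dendritic cell markers had 0 of 10 pass, with a median difference of -0.28 (-0.31 on slide 1). Sebaceous gland markers had 1 of 10 rise (Elovl3), but only 4 of 10 were higher in KO. Their median difference was -0.11 (-0.17 on slide 1), and their summed level was 5.28 to 5.68 in WT and 5.46 to 5.65 in KO. The 1 marker listed but not measured was Ngp, of neutrophils. The part of hair follicle, neutrophil and muscle markers in the beta-defensin differences was not tested.

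For each of the 5 genes, the 3 named genes with the most similar levels over the 6 arrays were found by Pearson's r. The 5 genes themselves and transcripts with only a provisional name were left out. As the highest r were picked over 6 arrays that share the split between WT and KO, a high r here is no result. Nor is a pass of a gene picked for its likeness to a member that passed. Defb48-ps, which has such a name in RefSeq and an r of 0.998 with Defb3, was left out in this way. For Defb14 these were Podnl1, Ptpn3 and Fscn3, with r of 0.999, 0.998 and 0.997 and differences of 2.17, 0.81 and 1.74, each of which passed (limma, adjusted p = 0.0166, 0.0434 and 0.0203). With slide as a block these 3 did not pass (0.208, 0.433 and 0.26), nor did they without any 1 of the WT arrays or KO 2 (highest 0.171), and Ptpn3 also lost its call without KO 7. For Defb3 they were Shroom3, Tmprss9 and Doc2a, with r of 0.995, 0.991 and 0.991 and differences of 0.57, 0.88 and 0.40, none of which passed. For Defb4 they were Nkx6-1, Olfr1131 and Pnma3, with r of 0.993, 0.993 and 0.992. These followed the order of the arrays but not the size, with differences of 0.39 to 0.53 beside 3.28 for Defb4. For Defb6 the closest gene was the alpha-defensin pseudogene Defa-ps12, with an r of 0.993, followed by Bicd2 with 0.973 and Pank1 with 0.963. The Defa-ps12 probe lies between those of Defb4 and Defb6 on chromosome 8, and its level was -2.49, -2.61 and -3.19 in WT and -1.80, -1.79 and -2.60 in KO, a difference of 0.70 ± 0.29 (SE; adjusted p = 0.184). For Defb1 they were Ugt2a1, Pla2g2c and Syngr4, with r of 0.977, 0.976 and 0.959 and differences between 0.05 and 0.08.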

How the data were processed

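Spot values were deposited as processed-signal intensity from Agilent Feature Extraction 10.7.3.1 (protocol GE1_107_Sep09), per the file headers, with background subtracted and no normalization between arrays. The deposited series matrix held the same intensity values for all 43340 features. Groups came from the sample titles. Outlier spots (170 to 249 of 43020 per array) were left out and spots of a probe averaged. The log2 value minus the array's 75th percentile was used. The percentile was 5556 to 7056 in WT and 4051 to 4708 in KO. Probes well above background on at least 3 arrays were kept, and a gene's brightest probe represented it. Names came from RefSeq (GRCm38.p6), matched by accession (26027 probes), symbol (3193) or synonym (925), while 9244 probes kept the file's name. KO and WT were compared in limma 3.58.1 (R 4.3.3), two-sided, with Benjamini-Hochberg adjustment over 23676 genes. The fit was tested on simulated data. Sequences were handled in Python 3.11.15 with Biopython 1.88 and blastn 2.17.0.

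The members and lists were chosen with earlier results of these data known. Named genes were the 5 members, list members that passed (up to 4, by p, or else the leading 2), up to 8 other beta-defensins and neighbours that passed. To these were added the 3 genes most alike in level per member, with members and provisionally named transcripts left out. Other names (Chil1, Lcn2, Wfdc2, Il17c, Ccl20, Reg3b, Bpifa1, Ngp, Cxcr2, Ly6g, Csf3r, Elovl3, Col17a1) were chosen after their values were seen.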

Additional observations from a re-analysis of the deposited data

How the results depend on the processing

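The number of arrays, 3 a group, limits the precision, and KO 2 and KO 7 lie on a slide without WT. Genes passing in limma numbered 574, of which 82.8% were higher in KO (72.4% with array median scaling, which moved the median of all genes by -0.129, and 57.8% with array weights). They numbered 1046 with normexp, 299 without a filter, 169 with slide as a fixed block, 7537 with array weights and 199 to 974 with 1 array left out. Without WT 1, WT 2, WT 3, KO 1 and KO 2 the count was 349, 199, 231, 974 and 251. Replicate numbers 1 and 2 occur in both groups, and whether this marks a pairing of mice is not given. Deviations of same-numbered arrays had correlations of 0.083 and 0.0542, beside -0.141 to 0.213 for arrays of unlike number. With so few arrays these values cannot show whether a pairing exists. With replicate number as a block, limma passed 0 genes (4528 at an unadjusted p under 0.05). In that fit Defb3 was 3.78 and Defb14 1.73, both short of the threshold (adjusted p = 0.0982 and 0.115). It had 1 residual degree of freedom, and WT 3 and KO 7, each alone in its number, did not enter its differences. With slide as a fixed block Defb3 was 4.89 and Defb14 1.61, also short of it, and these equal the slide 1 differences. With slide as a random block limma passed 474 genes. Among them were Defb3, Defb14 and Defb48-ps (adjusted p = 0.0205, 0.0179 and 0.0344), while Defb4 did not pass (0.0592). Defb3 passed at 3.59 with normexp and at 3.58 with array weights, both below its 4.50 in the main fit. Defb4 passed at 2.06 with normexp, at 3.28 with an intensity trend and at 2.33 with array weights, and Defb6 at 0.70 with array weights. In limma Defb4 did not pass with quantile normalization (adjusted p = 0.0724), with array median scaling (0.0569) or without the filter on dim probes (0.101). Defb1 turned to -0.069 with array median scaling, -0.060 with the replicate block and -0.11 with array weights. With 1 array left out, Defb3 ranged from 4.03 to 5.16, Defb4 from 2.77 to 3.87, Defb6 from 0.42 to 0.75, Defb14 from 1.65 to 2.05 and Defb1 from -0.061 to 0.15. For the other changes the cause was not tested.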
